A study of Mus musculus with 25 samples.

Results

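The effect of deleting Ptpn6 was measured in bone marrow neutrophils that already lacked Mlkl. The comparison held the 2 libraries of Mlkl-/- Ptpn6∆PMN mice and the 3 libraries of Mlkl-/- mice, 5 of the 25 libraries in the series. Members were chosen by genotype label, with no measured value used. Both groups were whole-body Mlkl knockouts, so neither held wild-type Mlkl alleles. The delta-PMN suffix marks deletion in polymorphonuclear cells, and the Cre driver was not given in the sources used here. All 5 libraries came from female C57BL/6J mice of 6 to 13 weeks, and all 5 were labelled as not inflamed. Neutrophils were taken by density at the interface of 68% and 78% Percoll, with no antibody sort named, and their messenger RNA was sequenced as 100 bp paired reads. The same deletion was also measured in Ripk3-/- Ptpn6∆PMN against Ripk3-/- mice (3 libraries each) and in Ripk3-/- Mlkl-/- Ptpn6∆PMN (3 libraries) against Ripk3-/- Mlkl-/- mice (2 libraries), which shared no library with the 5. One library, titled as Ripk3-/- Mlkl-/- but with a genotype label of Mlkl-/- Ptpn6∆PMN, entered no comparison. Nothing in the labels says that libraries of a group came from separate mice, so p-values measure spread between libraries. That spread was estimated over the 23 libraries of the 9 replicated groups and not over the 5 alone.

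Ptpn6 encodes SHP-1, a tyrosine phosphatase with SH2 domains that docks on phosphorylated inhibitory receptors and dampens signalling by Src family kinases, Syk and JAK kinases. Mlkl is the pore-forming effector of necroptosis, which acts downstream of the kinase Ripk3, and caspase-8 holds that pathway in check. In mice, loss of Ptpn6 in neutrophils is known to cause skin inflammation. The series title ties that inflammation to caspase-8 and to Ripk3 and Mlkl, and the comparison here asks what the loss of Ptpn6 changes in neutrophils when Mlkl is already absent.

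The targeted genes followed the labels. Ptpn6 (chr6:124720707-124738709, GRCm38.p6) had 183 and 194 CPM (counts scaled to library size) in the Mlkl-/- Ptpn6∆PMN libraries, against 493, 711 and 649 CPM in Mlkl-/-. The 2 groups did not overlap, and Ptpn6 fell (log2 change -1.71, SE 0.18, edgeR adjusted p = 0.000153). A gene-level count does not separate deleted from retained exons, and in these bulk samples transcripts from cells that escaped deletion cannot be told apart from residual transcripts in deleted cells. Mlkl had 0.325 and 0.878 CPM in Mlkl-/- Ptpn6∆PMN and 0.885, 0.515 and 0.757 CPM in Mlkl-/-, against 4.88, 4.31 and 3.52 CPM in the 3 wild-type libraries of the series. Ripk3 had 2.93 and 4.54 CPM in Mlkl-/- Ptpn6∆PMN, against 4.80, 2.53 and 2.79 CPM in Mlkl-/-. Casp8 had 21.4 and 32.9 CPM in Mlkl-/- Ptpn6∆PMN, against 29.0, 26.8 and 25 CPM in Mlkl-/-. The groups overlapped for Mlkl, Ripk3 and Casp8, and none of the 3 passed the test (edgeR adjusted p = 0.844 for Mlkl, 0.878 for Ripk3 and 0.981 for Casp8).

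Of 16206 genes tested, 244 were called at an edgeR adjusted p under 0.05, which is 1.51% of those tested. Of these, 160 were higher (0.987% of all tested) and 84 lower (0.518%) in Mlkl-/- Ptpn6∆PMN. Before adjustment 2834 genes (17.5%) had an edgeR p under 0.05, and DESeq2 called 765 of the 16206. Counts of list members given below are to be read beside these shares. The median log2 change was 1.10 among the genes that rose and -1.37 among those that fell, against -0.041 over all genes tested. A log2 change above 1 was reached by 91 of the genes that rose, and one below -1 by 59 of those that fell. The 2 Mlkl-/- Ptpn6∆PMN libraries were not equally far from Mlkl-/-: 147 of the 160 genes that rose (91.9%) were higher in replicate 2 than in replicate 1, against 52.8% of all genes tested. Among the genes that fell, 64 of 84 were lower in replicate 2. Of these 84, 53, 61 and 60 also lay below the Mlkl-/- range in the 3 wild-type libraries, which carry no deletion. In the 3 Ripk3-/- libraries it was 47, 21 and 40. Of the 160 that rose, 38, 64 and 38 lay above that range in wild-type and 54, 39 and 34 in Ripk3-/-. The matching shares of all genes tested are not given, so these counts alone do not set the called genes apart. Totals of the 5 libraries compared ran from 22220021 to 23187676 estimated counts. The TMM-scaled sizes behind the CPM were 18435885 and 19367134 in Mlkl-/- Ptpn6∆PMN, against 23726777, 21371463 and 21132904 in Mlkl-/-. The number of calls rested on single libraries. It was 191 without replicate 1 of Mlkl-/- Ptpn6∆PMN and 2 without replicate 2, and it was 31, 4 and 6 without replicates 1, 2 and 3 of Mlkl-/-. Ptpn6 and Ap1s1 were called in each of these 5 fits, and the direction of the 244 genes held in each of them, except for 1 gene that was not tested without replicate 1 of Mlkl-/-.

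**Figure D1:**
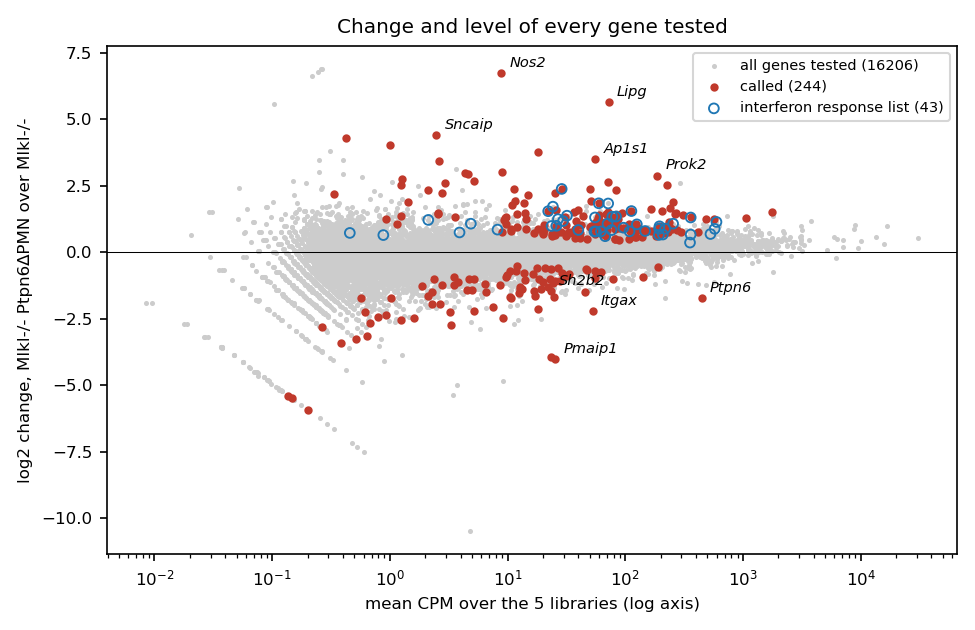
Log2 change of Mlkl-/- Ptpn6∆PMN over Mlkl-/- (vertical axis) against mean CPM over the 5 libraries (horizontal log axis), with 1 point for each of the 16206 genes tested. Red points are the 244 genes called and blue circles the 43 tested members of the interferon response list, all of which lie above 0.

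The gene with the smallest p was Ap1s1 (chr5:137034993-137046108), which encodes the small sigma subunit of the AP-1 clathrin adaptor of the trans-Golgi network. Ap1s1 had 158 and 87.4 CPM in Mlkl-/- Ptpn6∆PMN, against 12.4, 11.7 and 8.38 CPM in Mlkl-/- (log2 change 3.50, SE 0.26, edgeR adjusted p = 6.22e-07). It was the 1 gene among the largest rises named here that was higher in replicate 1 than in replicate 2 of Mlkl-/- Ptpn6∆PMN. Of the other 7 members of the AP-1 adaptor list, edgeR called 0 (2 with p under 0.05 before adjustment), and DESeq2 called 1. Ap1s1 also rose with the deletion in both other backgrounds, by a log2 change of 2.89 (SE 0.24) in Ripk3-/- and 3.28 (SE 0.29) in Ripk3-/- Mlkl-/-. Across the series it lay between 65.7 and 158 CPM in the 13 libraries labelled as carrying the deletion, against 8.20 to 14.1 CPM in the 11 assigned libraries without it. The library with conflicting labels had 12.4 CPM, within the range of the libraries without the deletion.

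Sh2b2, an SH2-domain adaptor that binds receptor tyrosine kinases and JAK2, lies 788.4 kb from Ap1s1 on the same chromosome. Sh2b2 had 13.8 and 9.09 CPM in Mlkl-/- Ptpn6∆PMN, against 39.0, 27.4 and 27.2 CPM in Mlkl-/- (log2 change -1.45, SE 0.27, edgeR adjusted p = 0.0236). Its range was 6.72 to 13.8 CPM over the 13 libraries with the deletion, against 17.8 to 39.0 CPM over the 11 without it. Without replicate 2 of Mlkl-/- Ptpn6∆PMN the log2 change of Sh2b2 was -1.18 (edgeR adjusted p = 0.448), and the call held in 1 of the 5 fits that left out a library. Of the 50 genes tested within 1 Mb of Ap1s1, Sh2b2 was the 1 gene called by edgeR, DESeq2 called 3, and their median log2 change was 0.03. Of the 45 genes tested within 1 Mb of Ptpn6, edgeR called 0 (8 with p under 0.05 before adjustment), and DESeq2 called 2. Of the 29 within 1 Mb of Mlkl, edgeR called 0 (4 with p under 0.05 before adjustment), and DESeq2 called 0. Over all genes tested, 17.5% had p under 0.05 before adjustment.

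**Figure D2:**
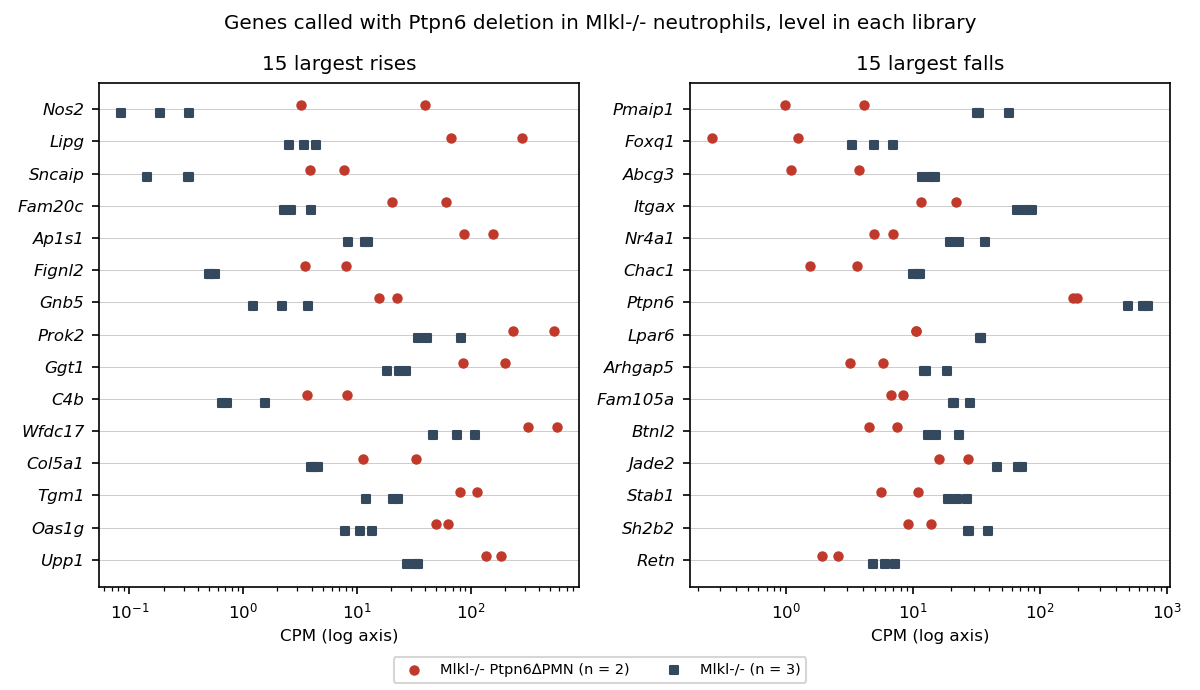
CPM (log axis) of the 15 largest rises (left) and 15 largest falls (right) among called genes, limited to those whose higher group averaged 5 CPM or more. Red circles are the 2 Mlkl-/- Ptpn6∆PMN libraries and dark squares the 3 Mlkl-/- libraries. The groups do not overlap for any of these genes, which the selection required, and among the rises the 2 red points lie farthest apart for Nos2 and Lipg.

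Nos2 and Lipg had the largest log2 changes among the rises named. Nos2, the inducible nitric oxide synthase, had 3.25 and 40.0 CPM in Mlkl-/- Ptpn6∆PMN, against 0.0843, 0.187 and 0.331 CPM in Mlkl-/- (log2 change 6.74, SE 1.22, edgeR adjusted p = 0.0236). Lipg, which encodes endothelial lipase, had 67.3 and 283 CPM in Mlkl-/- Ptpn6∆PMN, against 3.46, 2.53 and 4.40 CPM in Mlkl-/- (log2 change 5.66, SE 0.88, edgeR adjusted p = 0.00956). For both genes replicate 2 carried most of the mean, and without it the log2 change was 4.00 for Nos2 (edgeR adjusted p = 0.448) and 4.28 for Lipg (edgeR adjusted p = 0.344). Prok2, a secreted chemotactic peptide of neutrophils, had 238 and 539 CPM in Mlkl-/- Ptpn6∆PMN, against 34.6, 82.0 and 41.2 CPM in Mlkl-/- (log2 change 2.88, SE 0.57). Wfdc17, a small secreted protein of the whey acidic protein family, had 318 and 576 CPM in Mlkl-/- Ptpn6∆PMN, against 46.8, 75.3 and 110 CPM in Mlkl-/- (log2 change 2.53, SE 0.59). Fam20c, the Golgi kinase that phosphorylates secreted proteins, had 20.2 and 61.0 CPM in Mlkl-/- Ptpn6∆PMN, against 2.66, 2.29 and 3.97 CPM in Mlkl-/- (log2 change 3.77, SE 0.60). The same list of largest rises held C4b of the complement system (log2 change 2.61), the collagen gene Col5a1 (2.40), the glutathione-cleaving enzyme Ggt1 (2.64), the crosslinking enzyme Tgm1 (2.40) and the uridine-cleaving enzyme Upp1 (2.35). It also held Gnb5, a beta subunit of heterotrimeric G proteins (3.01), and Fignl2 (3.42). Lipg and Fam20c were called in 2 of the 5 fits that left out a library, and the other genes of this paragraph in 1. Each of the genes in this paragraph lost its call without replicate 2 of Mlkl-/- Ptpn6∆PMN, with edgeR adjusted p between 0.344 and 0.448 there.

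Sncaip, Wdr7 and B4galt6 were among the genes that rose with the smallest p values. Sncaip, which encodes the synuclein-binding protein synphilin-1, had 3.85 and 7.75 CPM in Mlkl-/- Ptpn6∆PMN, against 0.337, 0.328 and 0.142 CPM in Mlkl-/- (log2 change 4.39, SE 0.56, edgeR adjusted p = 0.00121). Its log2 change with the deletion was -0.51 in Ripk3-/- and -0.17 in Ripk3-/- Mlkl-/-. The difference between the Mlkl-/- and Ripk3-/- backgrounds was 4.91 (SE 0.80), and it did not pass the test over all genes (edgeR adjusted p = 0.121). Wdr7, a WD-repeat protein tied to vesicle acidification, had 25.8 and 29.9 CPM in Mlkl-/- Ptpn6∆PMN, against 17.4, 14.4 and 15.3 CPM in Mlkl-/- (log2 change 0.83, SE 0.12, edgeR adjusted p = 0.00376). Its log2 change was -0.02 in Ripk3-/- and 0.04 in Ripk3-/- Mlkl-/-. Both genes kept their call in 4 of the 5 fits that left out a library, and lost it without replicate 2 of Mlkl-/- Ptpn6∆PMN (edgeR adjusted p = 0.053 for Sncaip and 0.315 for Wdr7). B4galt6, a galactosyltransferase of lactosylceramide synthesis, had 103 and 119 CPM in Mlkl-/- Ptpn6∆PMN, against 40.0, 37.3 and 46.5 CPM in Mlkl-/- (log2 change 1.42, SE 0.22, edgeR adjusted p = 0.00956). B4galt6 held in 3 of those 5 fits, and its edgeR adjusted p was 0.346 without replicate 2 of Mlkl-/- Ptpn6∆PMN.

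Interferon-stimulated genes held more calls than any of the other 27 pathway lists, all higher. They encode antiviral enzymes, nucleic acid sensors and GTPases, and are switched on when interferon receptors activate STAT transcription factors and IRF9. Of 44 genes on the list, 43 were tested and Ifi44l had no count in these 5 libraries. All 43 had a log2 change above 0, against 45.8% of all genes tested. The groups did not overlap, with Mlkl-/- Ptpn6∆PMN higher, for 41 of the 43, against 17.6% of all genes tested. Of the 43 members, 11 rose and 0 fell, against 0.987% and 0.518% of all genes tested. The median log2 change was 0.98. The mean level over the 43 genes, as log2(CPM + 1), was 6.15 and 6.67 in Mlkl-/- Ptpn6∆PMN, against 5.41, 5.62 and 5.23 in Mlkl-/-. Both libraries with the deletion stood above all 3 without it, and replicate 2 was the higher.

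Among antiviral enzymes, Oas2, which makes the oligoadenylates that activate RNase L, had 434 and 688 CPM in Mlkl-/- Ptpn6∆PMN, against 228, 228 and 223 CPM in Mlkl-/- (log2 change 1.31, SE 0.30, edgeR adjusted p = 0.0390). Oas1a had 161 and 212 CPM in Mlkl-/- Ptpn6∆PMN, against 54.9, 74.0 and 62.3 CPM in Mlkl-/- (log2 change 1.55, SE 0.35). Oas1g had 49.3 and 62.8 CPM in Mlkl-/- Ptpn6∆PMN, against 7.92, 13.6 and 10.7 CPM in Mlkl-/- (log2 change 2.38, SE 0.59). Oas1a and Oas1g are close paralogs, so how reads were split between them is uncertain. Cmpk2, a nucleotide kinase, had 252 and 303 CPM in Mlkl-/- Ptpn6∆PMN, against 144, 159 and 120 CPM in Mlkl-/- (log2 change 0.98, SE 0.23). Zbp1, a sensor of Z-form nucleic acids that can engage Ripk3, had 80.5 and 129 CPM in Mlkl-/- Ptpn6∆PMN, against 26.3, 35.2 and 26.3 CPM in Mlkl-/- (log2 change 1.84, SE 0.35, edgeR adjusted p = 0.0253). Gbp2, an interferon-inducible GTPase, had 90.5 and 154 CPM in Mlkl-/- Ptpn6∆PMN, against 45.3, 53.8 and 45.6 CPM in Mlkl-/- (log2 change 1.34, SE 0.29). Stat2, the transcription factor of the type I interferon receptor, had 105 and 164 CPM in Mlkl-/- Ptpn6∆PMN, against 71.9, 69.3 and 72.0 CPM in Mlkl-/- (log2 change 0.92, SE 0.17, edgeR adjusted p = 0.0236). In all of these genes replicate 2 was the higher of the pair with the deletion. The remaining members that rose were Xaf1 (log2 change 1.55), the exonuclease Trex1 (1.00), and the ADP-ribosylation partners Parp14 (0.80) and Dtx3l (0.79). The other 32 members had log2 changes of 0.37 to 1.84 and edgeR adjusted p of 0.0503 to 0.653.

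The number of interferon members called moved with the libraries used. It was 12 without replicate 1 of Mlkl-/- Ptpn6∆PMN, and 0 without replicate 2 or without any single Mlkl-/- library. Without replicate 2 the median log2 change of the 43 was 0.68, with 41 of 43 above 0. DESeq2 called 32 of the 43, and edgeR on the 5 libraries alone called 25 of 42. With the mean level of B cell markers as a covariate the count was 4 and the median 0.89.

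**Figure D3:**
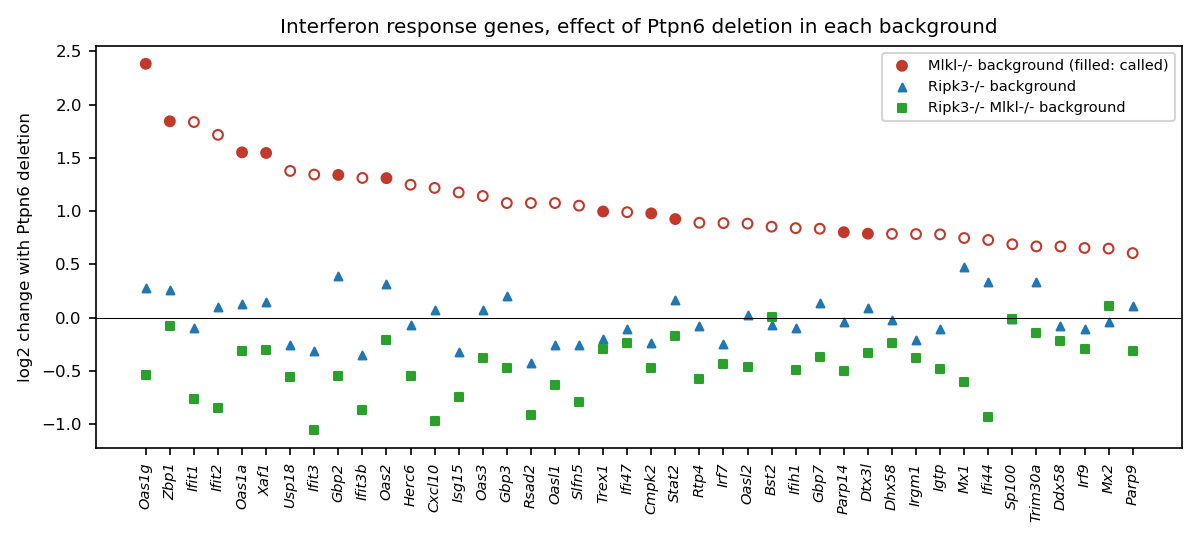
Log2 change with Ptpn6 deletion (vertical axis) of interferon response genes (horizontal axis, 42 of the 43 tested, ordered by their change in Mlkl-/-). Red circles are the Mlkl-/- background, filled for the 11 genes called, blue triangles Ripk3-/- and green squares Ripk3-/- Mlkl-/-. The red points all lie above 0 and reach 2.38, and over the 43 genes the other backgrounds have medians of -0.04 and -0.47.

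In the other backgrounds the same 43 genes had a median log2 change of -0.04 (Ripk3-/-) and -0.47 (Ripk3-/- Mlkl-/-). For the difference of the Ptpn6 effect against Ripk3-/-, edgeR called 0 of the 43 (35 with p under 0.05 before adjustment), and DESeq2 called 0. Against Ripk3-/- Mlkl-/-, edgeR called 0 (40 with p under 0.05 before adjustment), and DESeq2 called 14. Interferon list levels in those libraries, on the same log2(CPM + 1) scale, were 5.64, 5.35 and 5.31 in Ripk3-/- Ptpn6∆PMN and 5.64, 5.56 and 5.21 in Ripk3-/-. They were 5.22, 5.38 and 6.04 in Ripk3-/- Mlkl-/- Ptpn6∆PMN, against 6.32 and 5.66 in Ripk3-/- Mlkl-/-. Levels above 6 were also measured in 1 Ripk3-/- Mlkl-/- Ptpn6∆PMN library and 1 Ripk3-/- Mlkl-/- library. The 2 libraries of Casp8∆PMN Mlkl-/- Ptpn6∆PMN mice, which lack caspase-8 in neutrophils as well, had 5.64 and 5.94, below both Mlkl-/- Ptpn6∆PMN libraries. A separate list held interferon ligands, receptors and signalling genes and did not include Stat2. Of its 17 genes tested, edgeR called 0 (2 with p under 0.05 before adjustment), and DESeq2 called 0, with a median log2 change of -0.02. The transcription factor Irf5 had 55.2 and 44.6 CPM in Mlkl-/- Ptpn6∆PMN, against 63.2, 76.4 and 60.6 CPM in Mlkl-/- (edgeR adjusted p = 0.148). The DNA sensor Mb21d1 (cGAS) had 4.77 and 7.49 CPM in Mlkl-/- Ptpn6∆PMN, against 4.72, 3.28 and 3.31 CPM in Mlkl-/- (edgeR adjusted p = 0.167).

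Promoters of the interferon members that rose are shown because these genes moved together and interferon-stimulated genes are known to carry a shared element. The element searched was a pair of GAAA separated by any 2 bases, on both strands, from 250 bases before to 50 bases after each RefSeq start (GRCm38.p6). It was present in 20 of 34 list genes with a promoter sequence (58.8%), against 3.99% of all 27025 genes with one. Among the genes that rose it was in 12 of 123 (9.76%), and in 8 of 115 (6.96%) once list members were set aside. Among the genes that fell it was in 0 of 56. A second element, TTCNNNGAA, to which STAT dimers bind, was in 22 of the 123 genes that rose (17.9%), 5 of the 56 that fell (8.93%) and 8.67% of the 11754 tested genes with a promoter. Such matches describe letters and not bound sites. The 250 bases before the start of the 4 members that rose and hold the first element follow, 5′ to 3′ on the gene's strand, with matches in capitals (in Oas1a and Oas1g 2 matches overlap).
Stat2, chr10:128270248-128270497, plus strand: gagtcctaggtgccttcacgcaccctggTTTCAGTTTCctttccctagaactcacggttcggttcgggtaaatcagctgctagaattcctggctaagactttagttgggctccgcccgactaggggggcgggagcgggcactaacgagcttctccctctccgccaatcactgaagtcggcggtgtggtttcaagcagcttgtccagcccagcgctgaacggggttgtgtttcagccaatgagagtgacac
Gbp2, chr3:142620413-142620662, plus strand: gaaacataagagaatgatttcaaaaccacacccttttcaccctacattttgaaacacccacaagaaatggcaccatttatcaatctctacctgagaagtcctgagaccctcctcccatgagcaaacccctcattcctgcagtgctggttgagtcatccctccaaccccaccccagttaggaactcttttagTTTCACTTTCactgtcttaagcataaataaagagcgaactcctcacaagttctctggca
Oas1a, chr5:120907526-120907775, minus strand: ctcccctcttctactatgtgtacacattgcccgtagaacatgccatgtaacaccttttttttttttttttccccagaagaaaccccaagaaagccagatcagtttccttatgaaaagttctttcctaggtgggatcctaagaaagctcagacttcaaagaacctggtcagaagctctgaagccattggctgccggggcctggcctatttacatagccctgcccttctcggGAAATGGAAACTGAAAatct
Oas1g, chr5:120887614-120887863, minus strand: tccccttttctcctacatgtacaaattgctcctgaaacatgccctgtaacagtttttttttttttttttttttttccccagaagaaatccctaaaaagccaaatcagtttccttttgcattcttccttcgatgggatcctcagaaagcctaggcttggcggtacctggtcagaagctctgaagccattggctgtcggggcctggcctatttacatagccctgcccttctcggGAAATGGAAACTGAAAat
The match began 222 bases before the start in Stat2 and 59 bases before it in Gbp2. In the paralogs Oas1a and Oas1g it began 20 and 18 bases before the start, in a shared stretch.

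Cytokine receptor signalling through JAK kinases, which SHP-1 restrains, gave 2 calls among 23 genes tested, both higher, against 0.987% of all genes tested. The median log2 change of the list was 0.19. Jak3, the kinase of the common gamma chain, had 114 and 164 CPM in Mlkl-/- Ptpn6∆PMN, against 50.3, 49.1 and 58.1 CPM in Mlkl-/- (log2 change 1.41, SE 0.21, edgeR adjusted p = 0.00814). Csf2rb2, a mouse receptor subunit for IL-3, had 277 and 406 CPM in Mlkl-/- Ptpn6∆PMN, against 99.7, 111 and 137 CPM in Mlkl-/- (log2 change 1.56, SE 0.31, edgeR adjusted p = 0.0269). Its near-identical paralog Csf2rb makes the split of reads between them uncertain. Jak3 kept its call in 3 and Csf2rb2 in 1 of the 5 fits that left out a library, and without replicate 2 of Mlkl-/- Ptpn6∆PMN the edgeR adjusted p was 0.403 for Jak3 and 0.448 for Csf2rb2. Among 11 phosphatases of the SHP and SHIP family and its relatives, Ptpn6 itself and Ptpn22, a phosphatase that acts on Src family kinases, fell. Ptpn22 had 53.9 and 34.4 CPM in Mlkl-/- Ptpn6∆PMN, against 63.3, 70.1 and 87.6 CPM in Mlkl-/- (log2 change -0.74, SE 0.18, edgeR adjusted p = 0.0446), and it was not called without replicate 2 of Mlkl-/- Ptpn6∆PMN (-0.45, edgeR adjusted p = 0.463).

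Inhibitory receptors and Src family kinases had no call in edgeR. Of 17 inhibitory receptors with immunoreceptor tyrosine-based inhibitory motifs, edgeR called 0 (4 with p under 0.05 before adjustment), and DESeq2 called 1, Ceacam1, with a median log2 change of 0.18. Ceacam1, an inhibitory adhesion receptor, had 803 and 921 CPM in Mlkl-/- Ptpn6∆PMN, against 501, 518 and 553 CPM in Mlkl-/- (edgeR adjusted p = 0.086). Pirb, a paired immunoglobulin-like receptor that recruits SHP-1, had 1328 and 2140 CPM in Mlkl-/- Ptpn6∆PMN, against 897, 614 and 1259 CPM in Mlkl-/- (edgeR adjusted p = 0.232). Of 23 Src family kinases, Syk partners and activating receptors, edgeR called 0 (9 with p under 0.05 before adjustment), and DESeq2 called 2, Clec4e in the higher and Clec4n in the lower direction. Clec4e (Mincle), a receptor that signals through Syk, had 670 and 636 CPM in Mlkl-/- Ptpn6∆PMN, against 309, 327 and 391 CPM in Mlkl-/- (edgeR adjusted p = 0.0747). The groups did not overlap for Ceacam1, Pirb and Clec4e, as for 17.6% of all genes tested in the higher direction.

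A few death and inflammasome genes changed, 1 or 2 in each list. Over all genes tested 1.51% were called. Pmaip1, which encodes the BH3-only protein Noxa that frees pro-apoptotic BCL2 relatives by binding Mcl1, had 4.07 and 0.981 CPM in Mlkl-/- Ptpn6∆PMN, against 33.1, 56.8 and 32.0 CPM in Mlkl-/- (log2 change -4.01, SE 0.96, edgeR adjusted p = 0.0444). It was the 1 gene called of 15 BCL2 family genes tested. Its log2 change was -0.78 in Ripk3-/- and -0.28 in Ripk3-/- Mlkl-/-. Casp4, the caspase that senses cytosolic lipopolysaccharide (also called caspase-11), had 83.5 and 99.1 CPM in Mlkl-/- Ptpn6∆PMN, against 31.0, 43.0 and 45.1 CPM in Mlkl-/- (log2 change 1.20, SE 0.28, edgeR adjusted p = 0.0431). Aim2, the DNA sensor of an inflammasome, had 24.6 and 21.2 CPM in Mlkl-/- Ptpn6∆PMN, against 35.8, 43.1 and 42.4 CPM in Mlkl-/- (log2 change -0.82, SE 0.18, edgeR adjusted p = 0.0330). Casp4 and Aim2 were the 2 genes called of 13 in the inflammasome list. In the necroptosis and caspase-8 list Zbp1 and Tnfrsf10b, a death receptor for TRAIL, rose among 16 tested. Tnfrsf10b had 5.32 and 5.89 CPM in Mlkl-/- Ptpn6∆PMN, against 2.49, 2.43 and 1.75 CPM in Mlkl-/- (log2 change 1.33, SE 0.25, edgeR adjusted p = 0.0253). Pmaip1, Casp4 and Aim2 were called in 0, and Zbp1 and Tnfrsf10b in 1, of the 5 fits that left out a library, and all 5 genes had an edgeR adjusted p of 0.448 without replicate 2 of Mlkl-/- Ptpn6∆PMN.

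Interleukin-1 and NF-kB genes had no call in edgeR. Of 17 IL-1 family genes tested, edgeR called 0 (4 with p under 0.05 before adjustment), and DESeq2 called 2, Il18r1 and Irak4, with a median log2 change of 0.04. Il18r1, a chain of the IL-18 receptor, had 51.2 and 61.8 CPM in Mlkl-/- Ptpn6∆PMN, against 39.5, 38.3 and 40.3 CPM in Mlkl-/- (edgeR adjusted p = 0.0619). Irak4, the kinase downstream of MyD88, had 155 and 157 CPM in Mlkl-/- Ptpn6∆PMN, against 96.9, 113 and 120 CPM in Mlkl-/- (edgeR adjusted p = 0.0822). Of 22 TNF and NF-kB genes, edgeR called 0 (2 with p under 0.05 before adjustment), and DESeq2 called 1, Nfkbib, with a median of 0.08. Among 15 Toll-like receptor genes, Tlr1, which pairs with Tlr2 on bacterial lipopeptides, had 32.6 and 63.4 CPM in Mlkl-/- Ptpn6∆PMN, against 10.2, 9.26 and 11.1 CPM in Mlkl-/- (log2 change 2.24, SE 0.47, edgeR adjusted p = 0.0302). Of 20 chemokines and cytokines tested, Prok2 was the 1 gene called, against 1.51% of all genes tested. Among 18 chemoattractant receptors, Cxcr1, a receptor for CXC chemokines, rose (log2 change 1.24, SE 0.28, edgeR adjusted p = 0.0400), at 23.7 and 19.8 CPM in Mlkl-/- Ptpn6∆PMN, against 9.44, 7.91 and 10.3 CPM in Mlkl-/-. Without replicate 2 of Mlkl-/- Ptpn6∆PMN, Tlr1 and Cxcr1 had an edgeR adjusted p of 0.448.

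Specific granule genes had higher values in Mlkl-/- Ptpn6∆PMN, and none passed the test in edgeR. Of 20 tested, edgeR called 0 (12 with p under 0.05 before adjustment), and DESeq2 called 3, which were Cd177, Ltb4r1 and Ltf. All 20 had a log2 change above 0, against 45.8% of all genes tested, and 16 lay apart in the higher direction, against 17.6%, with a median of 0.70. Cd177, a surface glycoprotein stored in these granules, had 4313 and 4475 CPM in Mlkl-/- Ptpn6∆PMN, against 2205, 2306 and 2166 CPM in Mlkl-/- (log2 change 0.98, SE 0.28, edgeR adjusted p = 0.0782). Ltf, which encodes lactoferrin, had 13096 and 12491 CPM in Mlkl-/- Ptpn6∆PMN, against 7870, 6118 and 4808 CPM in Mlkl-/- (log2 change 1.03, SE 0.35, edgeR adjusted p = 0.137). Of 21 gelatinase granule and maturation genes, edgeR called 0 (7 with p under 0.05 before adjustment), and DESeq2 called 2, Ly6g and Mmp25. In that list 14 genes lay apart in the higher direction, against 17.6% of all genes tested, and 2 in the lower, against 18.1%, with a median of 0.46. Ly6g, the surface marker of mouse neutrophils, had 925 and 702 CPM in Mlkl-/- Ptpn6∆PMN, against 414, 462 and 441 CPM in Mlkl-/- (edgeR adjusted p = 0.0782). Cd101, a marker of mature neutrophils, had 269 and 159 CPM in Mlkl-/- Ptpn6∆PMN, against 269, 418 and 355 CPM in Mlkl-/- (edgeR adjusted p = 0.169). In the azurophil granule list Ctsc, the protease that activates the serine proteases of these granules, was the 1 gene called of 13. Over all genes tested 1.51% were called. Ctsc had 72.3 and 118 CPM in Mlkl-/- Ptpn6∆PMN, against 40.9, 35.6 and 32.3 CPM in Mlkl-/- (log2 change 1.39, SE 0.27, edgeR adjusted p = 0.0253), and its edgeR adjusted p was 0.448 without replicate 2 of Mlkl-/- Ptpn6∆PMN.

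Among metabolic genes, edgeR called 1 of the glycolysis list and 2 of the antioxidant list, against 1.51% of all genes tested. Pfkl, the liver-type phosphofructokinase of glycolysis, had 35.4 and 39.4 CPM in Mlkl-/- Ptpn6∆PMN, against 24.5, 20.5 and 21.2 CPM in Mlkl-/- (log2 change 0.76, SE 0.18, edgeR adjusted p = 0.0431). It was the 1 gene edgeR called of 28 in the glycolysis and hypoxia list (DESeq2 called 8). In that list 19 genes lay apart in the higher direction, against 17.6% of all genes tested, and the median was 0.56. Gclm, a subunit of the enzyme that starts glutathione synthesis (log2 change 1.15, SE 0.27, edgeR adjusted p = 0.0442), and Txnrd1, thioredoxin reductase (0.69, SE 0.17, edgeR adjusted p = 0.0455), rose among 20 antioxidant genes. These 3 genes were called in 0 of the 5 fits that left out a library (edgeR adjusted p = 0.448 without replicate 2 of Mlkl-/- Ptpn6∆PMN). Of 29 oxidative phosphorylation genes, 35 ribosomal protein genes and 32 cell cycle genes, edgeR and DESeq2 called 0, and 3, 0 and 0 had an unadjusted p under 0.05, with medians of 0.16, -0.07 and 0.15. The mean cell cycle level, as log2(CPM + 1), was 3.78 and 4.50 in Mlkl-/- Ptpn6∆PMN, against 4.52, 3.84 and 3.59 in Mlkl-/-, and the groups overlapped.

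**Figure D4:**
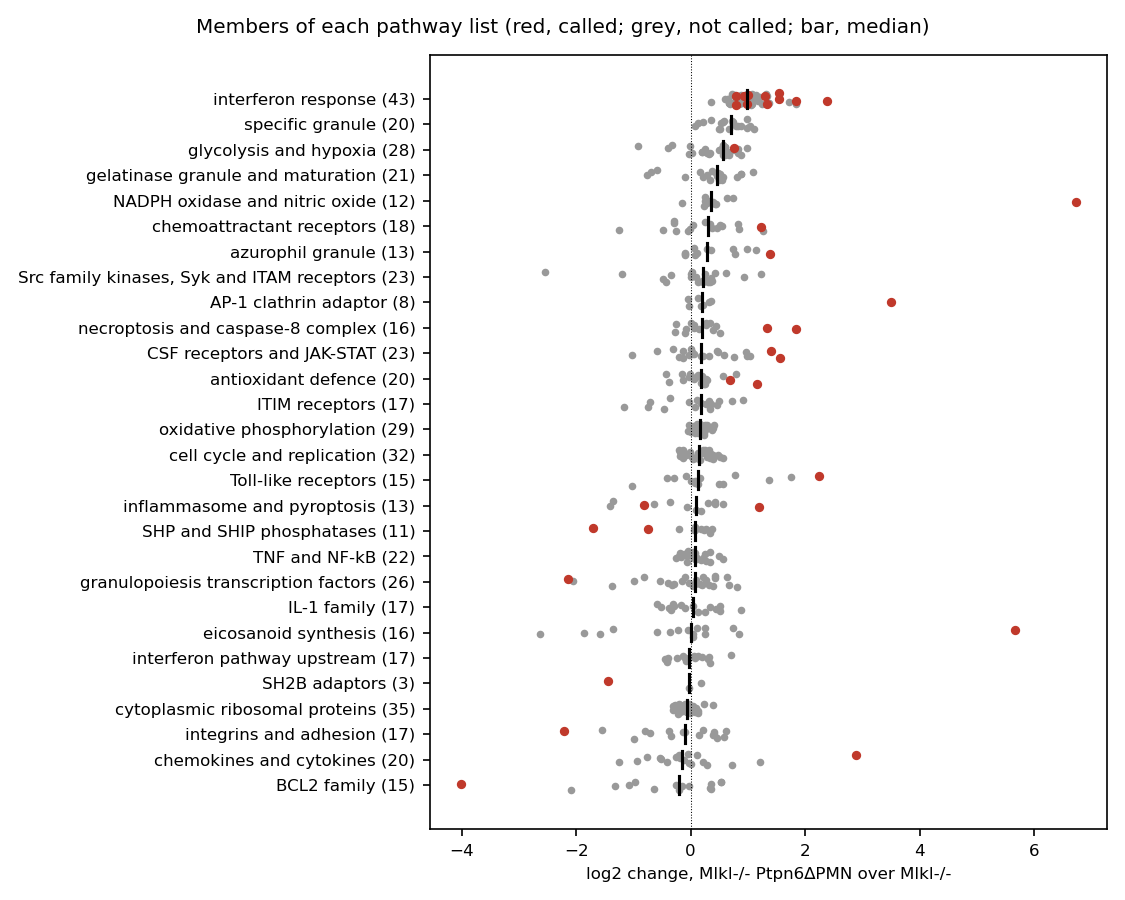
Log2 change of Mlkl-/- Ptpn6∆PMN over Mlkl-/- (horizontal axis) for every tested member of the 28 pathway lists (rows, number tested in brackets). Red points were called, grey points were not, and black bars are list medians, which run from 0.98 for interferon response to -0.21 for the BCL2 family.

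The genes that fell included surface receptors and adaptors. Itgax, the integrin CD11c, had 21.7 and 11.6 CPM in Mlkl-/- Ptpn6∆PMN, against 66.3, 78.0 and 87.0 CPM in Mlkl-/- (log2 change -2.21, SE 0.54, edgeR adjusted p = 0.0452). Nr4a1, a nuclear receptor induced early after stimulation, had 6.94 and 4.96 CPM in Mlkl-/- Ptpn6∆PMN, against 19.6, 36.6 and 22.9 CPM in Mlkl-/- (log2 change -2.15, SE 0.51, edgeR adjusted p = 0.0444). Lpar6, a receptor for lysophosphatidic acid, had 10.5 and 10.6 CPM in Mlkl-/- Ptpn6∆PMN, against 33.4, 34.4 and 34.6 CPM in Mlkl-/- (log2 change -1.69, SE 0.40, edgeR adjusted p = 0.0442). Within each group the Lpar6 libraries were close together. Stab1, a scavenger receptor of macrophages and endothelium, fell (log2 change -1.45, SE 0.36). Slc43a2, an amino acid transporter, had 56.2 and 42.2 CPM in Mlkl-/- Ptpn6∆PMN, against 91.8, 95.7 and 106 CPM in Mlkl-/- (log2 change -0.99, SE 0.18, edgeR adjusted p = 0.0236). The largest falls also held the glutathione-degrading enzyme Chac1 (log2 change -2.06), the transcription factor Foxq1 (-2.75), the transporter Abcg3 (-2.49), Fam105a (-1.63), Jade2 (-1.51), Btnl2 (-1.52), Arhgap5 (-1.69) and the secreted peptide resistin, Retn (-1.43). Cirbp, an RNA-binding protein induced by cold, fell (log2 change -0.88, SE 0.18, edgeR adjusted p = 0.0269). Itgax, Nr4a1, Lpar6, Chac1, Btnl2, Arhgap5 and Retn were called in 0 of the 5 fits that left out a library. The other genes of this paragraph were called in 1 or 2 of those fits. Each of the genes in this paragraph lost its call without replicate 2 of Mlkl-/- Ptpn6∆PMN, with edgeR adjusted p of 0.448, or 0.454 for Stab1.

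Markers of other cell types had changes in both directions. In bulk samples fewer cells of a type and less RNA per cell cannot be told apart. The median log2 change was 0.66 for eosinophil, 0.42 for monocyte, 0.33 for basophil and mast cell, and 0.27 for stem and progenitor markers. It was -0.06 for erythroid, -0.54 for T and NK cell, -0.75 for B cell, and -0.84 for plasma cell and for dendritic cell markers. For megakaryocyte and platelet markers it was -0.89, and for stromal and endothelial markers -1.24. The 14 neutrophil markers had a summed level of 154700 and 138600 CPM in Mlkl-/- Ptpn6∆PMN, against 89910, 105000 and 96720 CPM in Mlkl-/-, and their mean level was the highest of the 13 marker lists in all 5 libraries. The 15 B cell markers summed to 603 and 707 CPM in Mlkl-/- Ptpn6∆PMN, against 1427, 1129 and 891 CPM in Mlkl-/-, and 13 of the 15 lay apart in the lower direction, against 18.1% of all genes tested. The 14 dendritic cell markers tested summed to 249 and 191 CPM in Mlkl-/- Ptpn6∆PMN, against 577, 538 and 430 CPM in Mlkl-/-, and Itgax is one of them. The 16 macrophage markers summed to 868 and 702 CPM in Mlkl-/- Ptpn6∆PMN, against 629, 876 and 1051 CPM in Mlkl-/-, and the groups overlapped. Of these 16 markers, 14 had a log2 change below 0 and 5 lay apart in the lower direction, against 18.1% of all genes tested, with a median of -1.23. Itgax was the 1 marker called in the dendritic list and Nr4a1 the 1 in the monocyte list. In the other 11 marker lists edgeR called 0, 29 of 137 genes had an unadjusted p under 0.05, and DESeq2 called 5. Over all 16206 genes tested, 2834 (17.5%) had an unadjusted p under 0.05, and DESeq2 called 765. No marker of the B cell, dendritic or macrophage list tested was at 0 in all 5 libraries. The part that these cells play in the changes of Itgax, Stab1, Nr4a1 and the granule genes was not tested. With the B cell level as a covariate 145 genes were called, 87 higher and 58 lower, and 116 of them were among the 244.

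**Figure D5:**
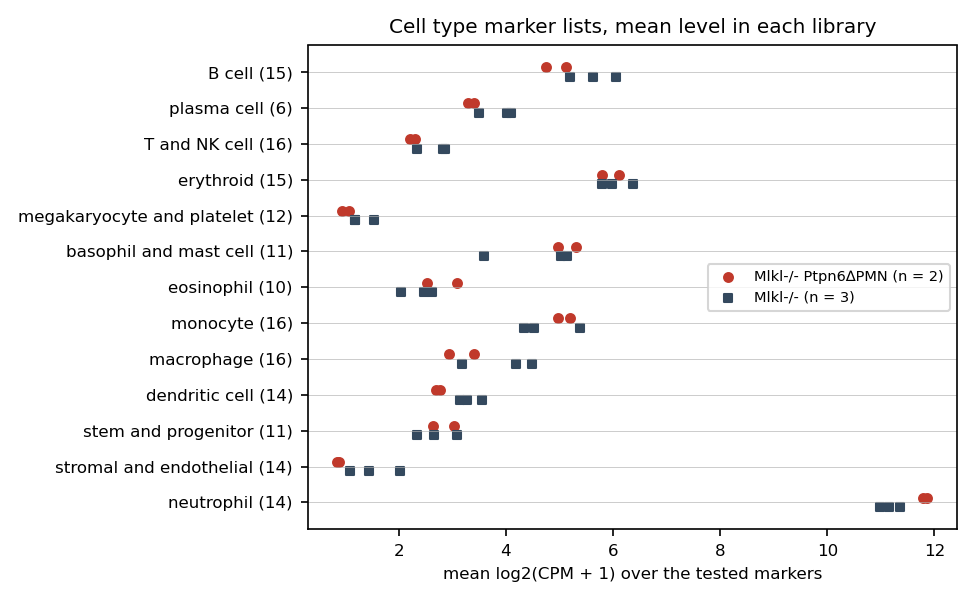
Mean log2(CPM + 1) (horizontal axis) over the tested markers of 13 cell types (rows, number tested in brackets) in each library. Red circles are Mlkl-/- Ptpn6∆PMN and dark squares Mlkl-/-. The B cell mean is 4.74 and 5.13 in Mlkl-/- Ptpn6∆PMN, against 6.06, 5.62 and 5.20 in Mlkl-/-, and the neutrophil mean is above 10 in every library.

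The called genes were then followed in the backgrounds that share no library with the comparison. Of the 160 genes that rose, 142 (88.8%) had a log2 change above 0 with the deletion in Ripk3-/-, against 50.4% of all genes tested, with a median of 0.37. In Ripk3-/- Mlkl-/- it was 104 (65.0%), against 54.1% of all genes tested, with a median of 0.10. The genes were chosen for their change in Mlkl-/-, so smaller medians elsewhere can follow from that choice alone. By library, 41, 141 and 121 of the 160 lay above the Mlkl-/- range in Ripk3-/- Ptpn6∆PMN. The mean B cell marker levels there, as log2(CPM + 1), were 6.4684, 5.4919 and 6.0052. In Ripk3-/- Mlkl-/- Ptpn6∆PMN the counts were 44, 67 and 134, with B cell levels of 7.0325, 6.4984 and 4.81. Whether cell content bears on these counts was not tested. Of the 84 that fell, 76 (90.5%) were below 0 in Ripk3-/- and 67 (79.8%) in Ripk3-/- Mlkl-/-, against 49.5% and 45.9% of all genes tested. Nos2, Lipg, Wfdc17 and Prok2 had log2 changes of 7.43, 3.21, 2.79 and 2.37 in Ripk3-/-, and of 1.76, 1.51, 0.90 and 1.13 in Ripk3-/- Mlkl-/-, where none of these 4 genes passed the test in either background. The difference of the deletion's effect between backgrounds was then tested for every gene. For Ptpn6 the deletion gave -1.26 in Ripk3-/- and -1.01 in Ripk3-/- Mlkl-/- on the log2 scale, against -1.71 in Mlkl-/-. Neither difference passed the test over all genes (edgeR adjusted p = 0.844 against Ripk3-/- and 0.387 against Ripk3-/- Mlkl-/-). Between the Mlkl-/- and Ripk3-/- backgrounds edgeR called 0 of 16206 genes, 947 had an unadjusted p under 0.05 (5.84%), and DESeq2 called 4. Between the Mlkl-/- and Ripk3-/- Mlkl-/- backgrounds edgeR called 0, 1761 had an unadjusted p under 0.05 (10.9%), and DESeq2 called 61. The smallest p values of that second test belonged to Lsmem1, Cnnm2, Eif2ak2 and Cirbp. Eif2ak2, the interferon-inducible kinase PKR, had 63.6 and 110 CPM in Mlkl-/- Ptpn6∆PMN, against 38.8, 39.5 and 37.1 CPM in Mlkl-/- (log2 change 1.18), and its change was -0.40 in Ripk3-/- Mlkl-/-. That difference of 1.58 had an edgeR adjusted p of 0.185. Without replicate 3 of Ripk3-/- Mlkl-/- Ptpn6∆PMN, 557 differences were called. That library had the highest interferon level of its group and the lowest mean B cell marker level (4.81 as log2(CPM + 1)). Its mean cell cycle level was also the lowest (3.83, against 5.18 and 5.15). Whether any of these traits bears on the count was not tested.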

How the data were processed

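Bulk messenger RNA libraries of mouse bone marrow neutrophils were analysed from the authors' deposited table of estimated counts per gene. Per the submitters' processing notes it was made with Salmon 0.14.1 on GRCm38.p6, and DESeq2 is also named there. The step from transcripts to genes is not given in the sources used here. The deposited expected counts, 35741 genes by 25 libraries, are not scaled to depth or length, and they were rounded to whole numbers. Library totals give the depth, and low genes carry large counting error.

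Groups came from genotype labels. One edgeR 4.0.16 model (R 4.3.3) covered the 23 libraries of the 9 replicated groups (TMM scaling, filterByExpr with minimum count 10 and minimum total 15, quasi-likelihood F test, 14 residual degrees of freedom), so the spread was shared across groups. A call means a Benjamini-Hochberg adjusted p below 0.05 over all 16206 genes tested. The difference of the deletion's effect between backgrounds was a contrast of the same fit. The procedure was tested on simulated counts.

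Named genes were the targeted genes, the 15 strongest rises and 15 strongest falls called where the groups lay apart and the higher one averaged 5 CPM or more, the 6 smallest p values each way, every called list member, up to 4 smallest p values of lists with none called, and the 4 smallest p values of each difference. Predicted genes and receptor segments (9 among the rises, 27 among the falls) were counted and not named. The comparison and the 28 pathway and 13 marker lists were chosen with earlier results of these data known. Coordinates (for 95.7% of tested genes) and promoters are RefSeq's for GRCm38.p6, the build of the counts. Alternatives were DESeq2's size factors, no filter, DESeq2 1.42.0, edgeR on the 5 libraries alone, a replicate block, a B cell covariate and leaving out each library, which assumes that a lone remaining library varies as other groups do. Figures were drawn with matplotlib 3.10.9. The single-gene results of a few list members are not reported here.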

Additional observations from a re-analysis of the deposited data

Results flagged for a closer look

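Ap1s1 had 130 CPM in the single library of Casp8∆PMN Ptpn6∆PMN mice, which was labelled as inflamed and entered no comparison. That value lies above the 8.38 to 12.4 CPM of the 3 Mlkl-/- libraries, and between the 158 and 87.4 CPM of the 2 Mlkl-/- Ptpn6∆PMN libraries.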

How the results depend on the processing

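The count of 244 calls (160 higher, 84 lower) was 532 (326 higher, 206 lower) in edgeR on the 5 libraries alone and 765 (490 higher, 275 lower) in DESeq2. It was 145 (87 higher) with the B cell covariate, 352 with no filter and 255 with DESeq2's size factors. Leaving out single libraries gave 2 to 191 calls, 1 to 117 of them higher and 1 to 74 lower. A replicate block left 3 calls (2 higher, 1 lower), namely Ap1s1, Ptpn6 and Sncaip. Same-numbered libraries deviated in opposite directions (r = -0.402 and -0.229). With only 2 Mlkl-/- Ptpn6∆PMN libraries their deviations mirror each other, so these 2 values are not independent and cannot decide on pairing. The labels tie no number to a shared animal or day, so the numbers were not taken as pairs. None of the 244 genes changed sign in any of these alternatives, but 4 were not tested on the 5 libraries alone and 1 was not tested without replicate 1 of Mlkl-/-. The difference between the Mlkl-/- and Ripk3-/- backgrounds gave 1 call with no filter and 4 in DESeq2. That between Mlkl-/- and Ripk3-/- Mlkl-/- gave 61 in DESeq2 and 0 to 557 when a library was left out. Among the genes named in these texts, those that changed sign were 3 with no call: leaving out single libraries gave log2 changes of -1.136 to 0.283 for Mlkl (the sign turned without replicate 1 of Mlkl-/- Ptpn6∆PMN), -0.208 to 0.491 for Ripk3 and -0.334 to 0.293 for Casp8, and Casp8 was -0.009 on the 5 libraries alone and -0.069 with the block. The cause was not tested, beyond the smaller number of samples in those fits. Genes under about 5 CPM rest on few counts.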

Other observations

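Chromosome 18 had the highest share of called genes. Of 368 genes tested there, 7 rose and 5 fell, which is 3.26% against 1.51% of all genes tested. Sncaip, Wdr7, B4galt6, Lipg and Pmaip1, described above, all lie on it. The next highest share was 2.50% on chromosome 15 (9 rose and 7 fell of 640). The chromosome was singled out after its values were seen, and no test was run.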
